A study of Mus musculus with 19 samples.

Results

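The genes described here encode costimulatory and coinhibitory receptors of regulatory and helper T cells, a chain of the interleukin 2 receptor, and transcription factors of regulatory T cells. Foxp3, Ikzf2, Il2ra, Cd28, Ctla4, Icos, Pdcd1, Tnfrsf4 and Tnfrsf18 were picked by symbol from the deposited expression table, and all 9 were found among its 27179 genes. They were described across the groups of mice and relative to Cd3e, a chain of the CD3 complex of the T cell receptor.

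The FCG (core genotypes) model separates the sex chromosomes from the gonads. XXF and XYF mice have ovaries, and XXM and XYM mice have testes. The cross paired B6.Cg-Tg(Sry)2Ei Srydl1Rlb/ArnoJ fathers with C57BL/6J mothers, and these fathers carry a Y chromosome without Sry, together with an Sry transgene on chromosome 3. All mice received heat-killed Streptococcus pneumoniae (HKSP) and spleen cells were taken 1 week later. There were 5 XXF, 4 XYF, 5 XXM and 5 XYM mice, with 1 library each. The sources used here do not give the age of these mice and do not say whether their gonads were left in place. The series holds no mouse without HKSP, so that every difference below is between immunized groups. The transgene sits outside its native locus, and in this model the effect of testes cannot be told apart from that of the transgene itself.

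The libraries held 11263753 reads (XYF F6) to 19962022 reads (XYM 13) on genes. Levels are RPKM, reads scaled to the length of the gene and the size of the library, which can be compared between genes. Differences are on the log2(RPKM + 1) scale of the table, where 1 is close to a doubling for the more abundant genes. Folds given for levels, with the 1.5-fold threshold, are therefore ratios of RPKM + 1. They can be smaller than ratios of RPKM, mostly for weakly expressed genes. In the 4 groups, the fewest reads on any of these genes in a mouse were 68 (Foxp3 in XYF F6). A gene is called when limma gave a Benjamini-Hochberg adjusted p under 0.1 over all genes tested and the difference passed 1.5-fold. All 9 genes passed the filter on low levels (RPKM of at least 0.5 in 4 mice) among 14186 genes tested.

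The cells carried the markers of spleen. All 16 T cell markers looked for had reads, and summed RPKM of B cell markers lay between 1407 and 4563. In 2 mice another cell type stood out. Summed over 7 neutrophil markers, the RPKM was 56629 in XYF F9 and 58534 in XYM 9, against 3208 to 16768 in the other mice, with S100a9 the most abundant in every group. The same 2 mice had the highest macrophage and monocyte markers (3594 and 3442, against 747 to 1834). They also had the lowest summed T cell markers of their groups, with 934 in XYF F9 and 627 in XYM 9. Results that rest on these mice are given with and without them.

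**Figure D1:**
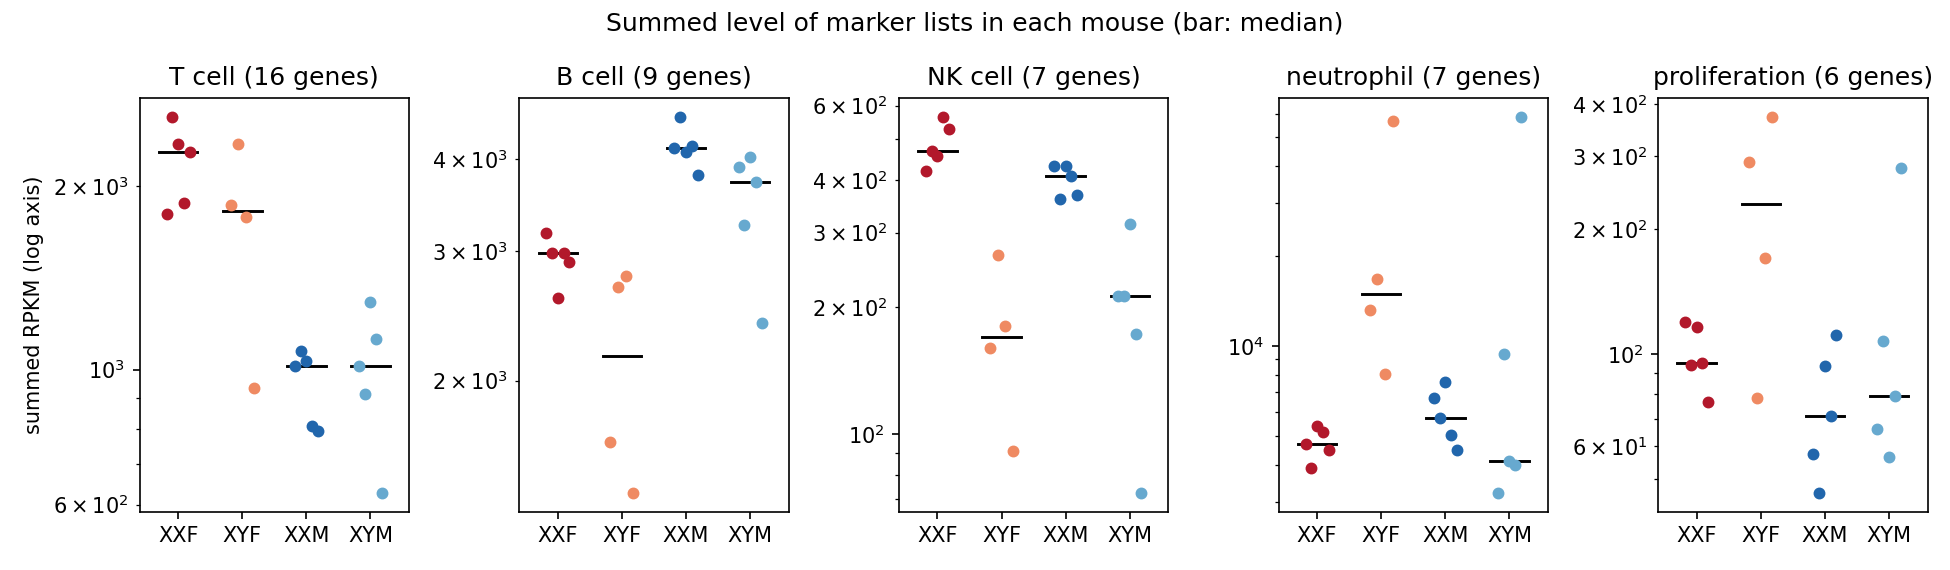
Summed RPKM of the markers of 5 cell types or states in each mouse, on log axes, with a bar at the median of each group. XYF F9 and XYM 9 stand at the top of the neutrophil panel (56629 and 58534), and the T cell markers of the 10 males lie between 627 and 1294.

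T cells need a signal through their antigen receptor together with costimulation, which CD28 delivers on binding CD80 or CD86. CTLA-4 binds the same ligands and restrains the response, and PD-1, the product of Pdcd1, is an inhibitory receptor of activated T cells. Regulatory T cells are defined by the transcription factor FOXP3, carry much CD25 (Il2ra) and CTLA-4, and in the spleen limit responses of helper T cells, among them follicular helper cells, which carry much ICOS and PD-1 and help B cells.

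Ctla4, Pdcd1 and Tnfrsf4 varied together between mice, as described further below, and their promoters are shown for that reason. Icos varied with them as closely, but no promoter of it was listed. RefSeq promoters, 250 bases before to 50 bases after the start, were at hand for 6 of the 9 genes. They are from build GRCm38.p6, for Ctla4 chr1:60908775-60909074 (plus strand), for Pdcd1 chr1:94052504-94052803 (minus strand) and for Tnfrsf4 chr4:156013445-156013744 (plus strand). Capitals mark matches of GGAAA, the core letters of NFAT binding, on either strand (TTTCC as printed).
Ctla4: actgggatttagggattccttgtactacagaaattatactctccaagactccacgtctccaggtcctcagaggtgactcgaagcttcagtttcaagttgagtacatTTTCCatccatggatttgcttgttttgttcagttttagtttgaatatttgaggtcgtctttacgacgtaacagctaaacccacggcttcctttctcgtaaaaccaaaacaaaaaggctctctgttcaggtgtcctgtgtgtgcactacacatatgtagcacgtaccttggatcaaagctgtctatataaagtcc
Pdcd1: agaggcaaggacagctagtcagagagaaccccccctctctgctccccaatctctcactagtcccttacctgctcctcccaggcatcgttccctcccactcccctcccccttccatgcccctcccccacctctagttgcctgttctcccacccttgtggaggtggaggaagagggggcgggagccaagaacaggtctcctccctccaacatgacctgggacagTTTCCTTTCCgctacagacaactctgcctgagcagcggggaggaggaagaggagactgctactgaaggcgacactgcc
Tnfrsf4: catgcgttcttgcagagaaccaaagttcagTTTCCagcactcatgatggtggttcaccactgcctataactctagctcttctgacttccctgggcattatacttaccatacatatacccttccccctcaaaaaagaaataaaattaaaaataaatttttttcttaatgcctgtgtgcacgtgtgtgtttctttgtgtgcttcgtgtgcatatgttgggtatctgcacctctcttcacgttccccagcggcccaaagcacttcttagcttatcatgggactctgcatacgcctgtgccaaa
Pdcd1 held 2 matches in direct succession, at -28 and -23 from the start. Ctla4 held 1 match (at -144), as did Tnfrsf4 (at -220). These positions count from the start of the listed promoter. For Tnfrsf4 that start differs from the listed start of the gene (chr4:156013595), which also lies within the stretch shown. GGAAA is common, with a match in 61.3% of the 32851 promoters. The forkhead letters TGTTTAC (3.65% of promoters) and the AP-1 letters TGANTCA (7.81%) had no match in the 7 promoters of these 6 genes, Foxp3 having 2. The STAT letters TTCNNNGAA (8.30%), searched on both strands like the others, matched in Tnfrsf18 and in the second promoter of Foxp3, where the match overlapped a GGAAA match. A match describes the letters alone. Ikzf2 and Cd28 were likewise not listed.

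Tnfrsf18 was the most abundant of the 9 genes, with a mean RPKM of 29.6 ± 6.44 (SD, n = 19), and lay above the next gene in all 19 mice. It was followed by Cd28 (14.01 ± 5.29), Tnfrsf4 (12.4 ± 4.27), Icos (12.1 ± 3.61), Pdcd1 (9.65 ± 5.48) and Ctla4 (9.19 ± 2.53). These 5 neighbours overlapped, since each exceeded the next in only 10 to 14 of the 19 mice. Ctla4 exceeded Ikzf2 (6.30 ± 1.69) and Ikzf2 exceeded Il2ra (3.21 ± 0.76) in all 19 mice. Il2ra and Foxp3 (3.16 ± 1.21) were the least abundant and were not ordered, with Il2ra higher in 9 of 19 mice. The order moved with the group. Cd28 came next after Tnfrsf18 in XXF mice (20.2) but below Tnfrsf4 and Icos in XXM mice (7.77). Pdcd1 came next after Tnfrsf18 in XYM mice (15.7) and below Ctla4 in the other 3 groups.

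**Figure D2:**
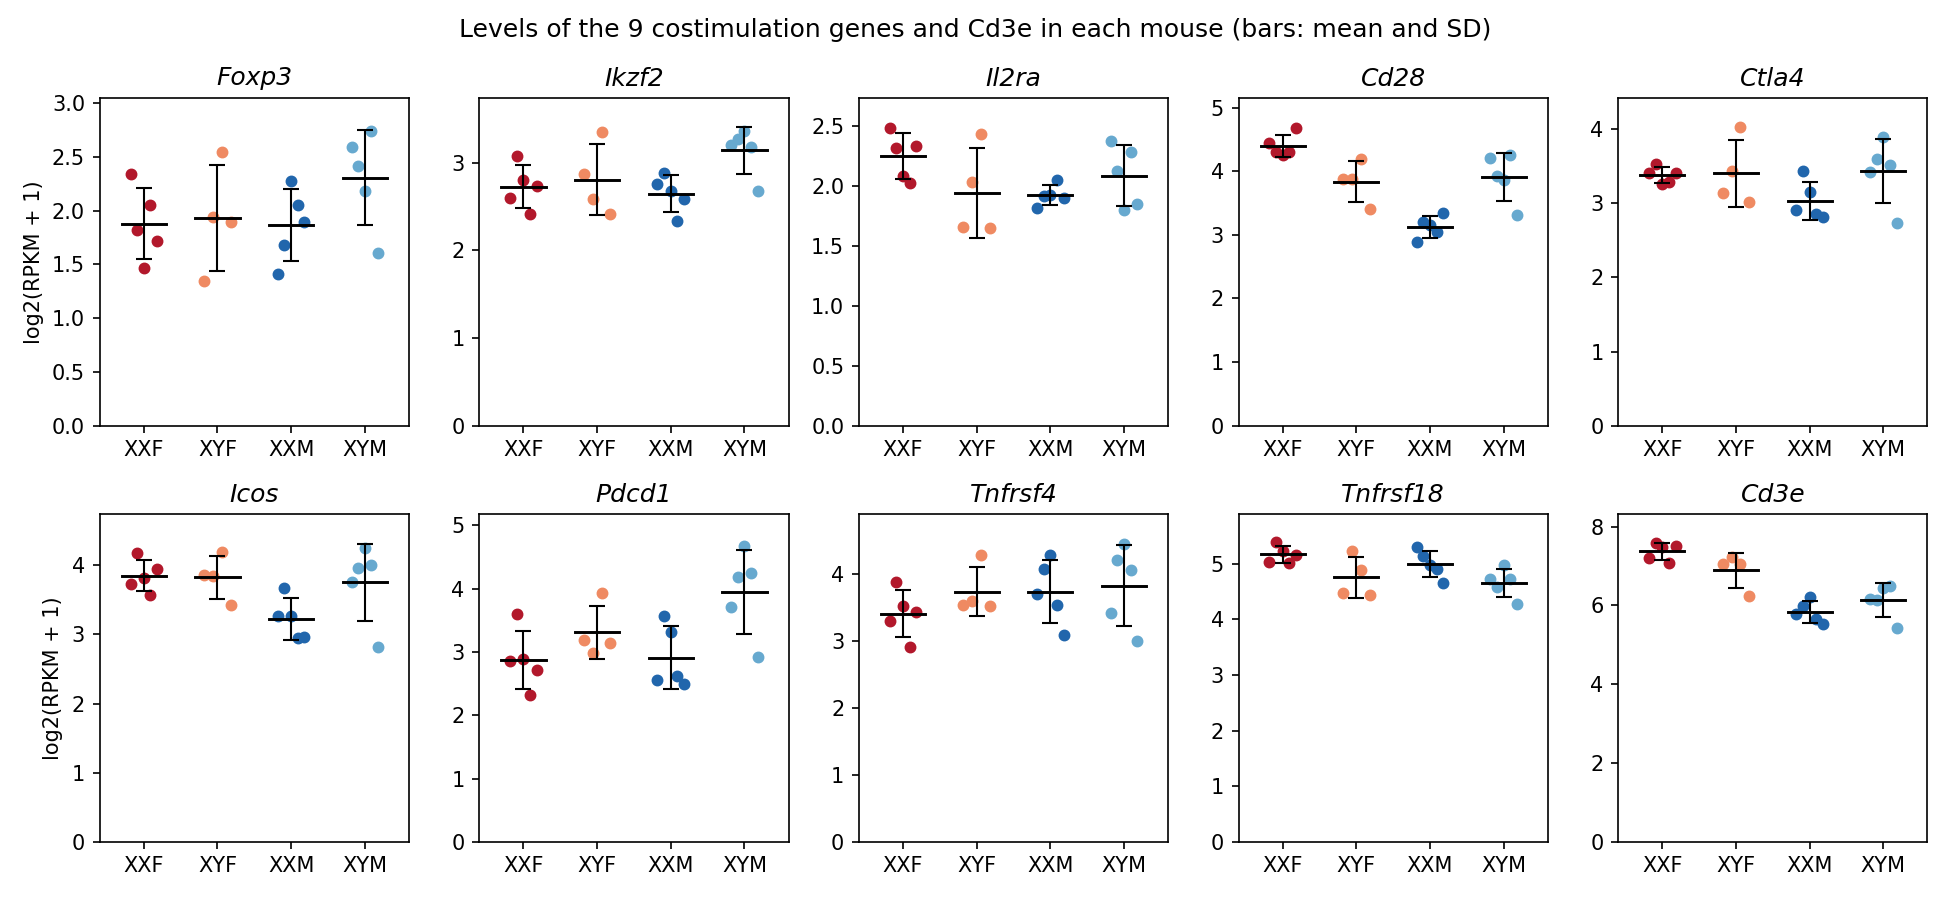
log2(RPKM + 1) of the 9 genes and Cd3e in each mouse by group, with the mean and SD. The 5 XXM mice lie below the 5 XXF mice for Cd28 and for Cd3e.

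Foxp3 (Entrez Gene 20371, chrX:7579676-7595243, GRCm38), which specifies regulatory T cells, had RPKM of 4.07, 2.52, 1.76, 3.16 and 2.29 in XXF mice, 1.54, 2.83, 4.85 and 2.73 in XYF mice, 1.66, 2.21, 3.84, 3.16 and 2.73 in XXM mice, and 5.03, 4.34, 3.53, 5.69 and 2.04 in XYM mice. All groups overlapped. XYM mice had the highest mean (4.13), and the mouse with the lowest level among them was XYM 9. Foxp3 was called in none of the 7 comparisons. Its largest difference was XXM vs. XYM, -0.44 ± 0.24 (SE, n = 5 and 5; limma adjusted p = 0.233). Without XYM 9 that difference was -0.62 and was called (limma adjusted p = 0.0995). Although Foxp3 is on the X chromosome, XXF and XYF mice differed by -0.05 ± 0.25, with a 95% interval from -0.58 to 0.48.

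Ikzf2 (Entrez Gene 22779, chr1:69531207-69687351) encodes Helios, an Ikaros family factor found in most regulatory T cells. Its RPKM ranged from 4.04 to 9.32, with group means of 5.70 (XXF), 6.23 (XYF), 5.32 (XXM) and 7.93 (XYM). In 4 of 5 XYM mice it lay above every XXM mouse, and XYM 9 was the exception at 5.40. The difference XXM vs. XYM was -0.49 ± 0.17 (SE; limma adjusted p = 0.108) and was not called. Leaving out XYM 9 gave -0.61 and a call (limma adjusted p = 0.0620).

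Il2ra (Entrez Gene 16184, chr2:11642792-11693194), the alpha chain that raises the affinity of the interleukin 2 receptor, had RPKM between 2.12 and 4.58. XXF mice had the highest mean (3.77 ± 0.62, SD) and XXM mice the narrowest spread (2.78 ± 0.22, from 2.52 to 3.12). In 4 of 5 XXM mice it was below every XXF mouse, but the difference of -0.33 ± 0.15 was not called (limma adjusted p = 0.234). None of its 7 differences was called. Without XYF F8, the difference of its XX vs. XY effects between females and males was 0.63 and was called (limma adjusted p = 0.0918), against 0.47 with all mice (limma adjusted p = 0.230).

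Cd28 (Entrez Gene 12487, chr1:60746388-60773359), the costimulatory receptor itself, gave the clearest group pattern of levels among the 9 genes. Its RPKM was 20.8, 18.7, 18.1, 18.7 and 24.6 in XXF mice, 13.6, 13.7, 17.2 and 9.62 in XYF mice, 6.40, 8.25, 7.90, 7.22 and 9.10 in XXM mice, and 17.5, 14.1, 13.6, 18.1 and 8.88 in XYM mice. The XXF mice were the highest and did not overlap with XYF or XXM mice. The XXM mice were the lowest, and only XYM 9 (8.88) came within their range. Cd28 fell 2.42-fold in XXM vs. XXF mice (log2 difference -1.27 ± 0.17, SE, n = 5 and 5; limma adjusted p = 0.0000964). Of all 14186 genes 4.22% were called in that comparison, and of the 9 genes 1, Cd28. It was called there under every alternative tried, including without XYF F9 and XYM 9 (-1.27). Cd3e fell by more in the same comparison (-1.53), and 15 of the 16 T cell markers were called lower (median -1.42). As a percentage of Cd3e, Cd28 overlapped between XXM and XXF mice. The part of T cells in the fall of Cd28 was not tested.

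Between XXM and XYM mice Cd28 was 1.72-fold lower (-0.79 ± 0.17, SE, n = 5 and 5; limma adjusted p = 0.0341). Of the 9 genes 2 were called there, Cd28 and Pdcd1, against 2.96% of all genes. Of 16 T cell markers 3 were called lower and of 7 NK cell markers 4 higher, and their part was not tested. Without XXM 2 the difference of Cd28 was -0.73 and without XYM 12 it was -0.71, and neither was called (limma adjusted p = 0.108 and 0.102). Without XYF F9 and XYM 9 it was larger (-0.94; limma adjusted p = 0.000541). In females the sign was the opposite: Cd28 was higher in XXF than in XYF mice by 0.56 ± 0.18, which was not called (limma adjusted p = 0.133), although no XYF mouse reached the lowest XXF mouse. Leaving out XYF F8 brought it to 0.68 and a call (limma adjusted p = 0.0662). Without XYF F9 and XYM 9 it was 0.42 and was not called (limma adjusted p = 0.200). None of the 9 genes was called by limma in XXF vs. XYF mice, where 1.38% of all genes were. An unadjusted limma p under 0.05 was found for 2 of the 9, against 2655 of 14186 genes. limma-voom on recovered reads also called 0.

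The XX vs. XY difference of Cd28 was called as different between the gonadal sexes. The XX vs. XY difference in females exceeded that in males by 1.35 ± 0.24 (SE, n = 19; limma adjusted p = 0.0546). All 16 T cell markers had a value above 0 here too (median 0.61, none called), and their part was not tested. Of all genes 0.0846% (12 genes) were called for such a difference, and Cd28 was the 1 called of the 9. The call was near its threshold. It was lost without any of 11 mice, with values from 1.21 (without XYF F9) to 1.37 (without XXF F2) and limma adjusted p from 0.103 to 0.150. These 11 were XXF F1, F2, F4 and F5, XYF F6 and F9, XXM 2 and 6, and XYM 12, 13 and 16. Without XYF F9 and XYM 9 together it was 1.36 and was called (limma adjusted p = 0.00716), but so were 5.53% of all genes. That share itself was unstable, from 0 to 1693 genes on leaving out each mouse. Averaged over both gonadal sexes, Cd28 was not called between XX and XY mice (-0.11 ± 0.12; limma adjusted p = 0.593), a mean over 2 opposite values. Males had less than females by 0.60 ± 0.12 (limma adjusted p = 0.00213), which passed 1.5-fold narrowly. Without XXF F5 (-0.56), XYF F8 (-0.54), XXM 2 (-0.57) or XYM 9 (-0.52) that difference was below 1.5-fold. Of all genes 7.32% were called between males and females, and Cd28 was the 1 called of the 9. Between XYM and XYF mice limma called 15.8% of all genes and 0 of the 9, and limma-voom called 0 of the 9. An unadjusted limma p under 0.05 was found for 0 of the 9, against 6019 of 14186 genes.

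**Figure D3:**
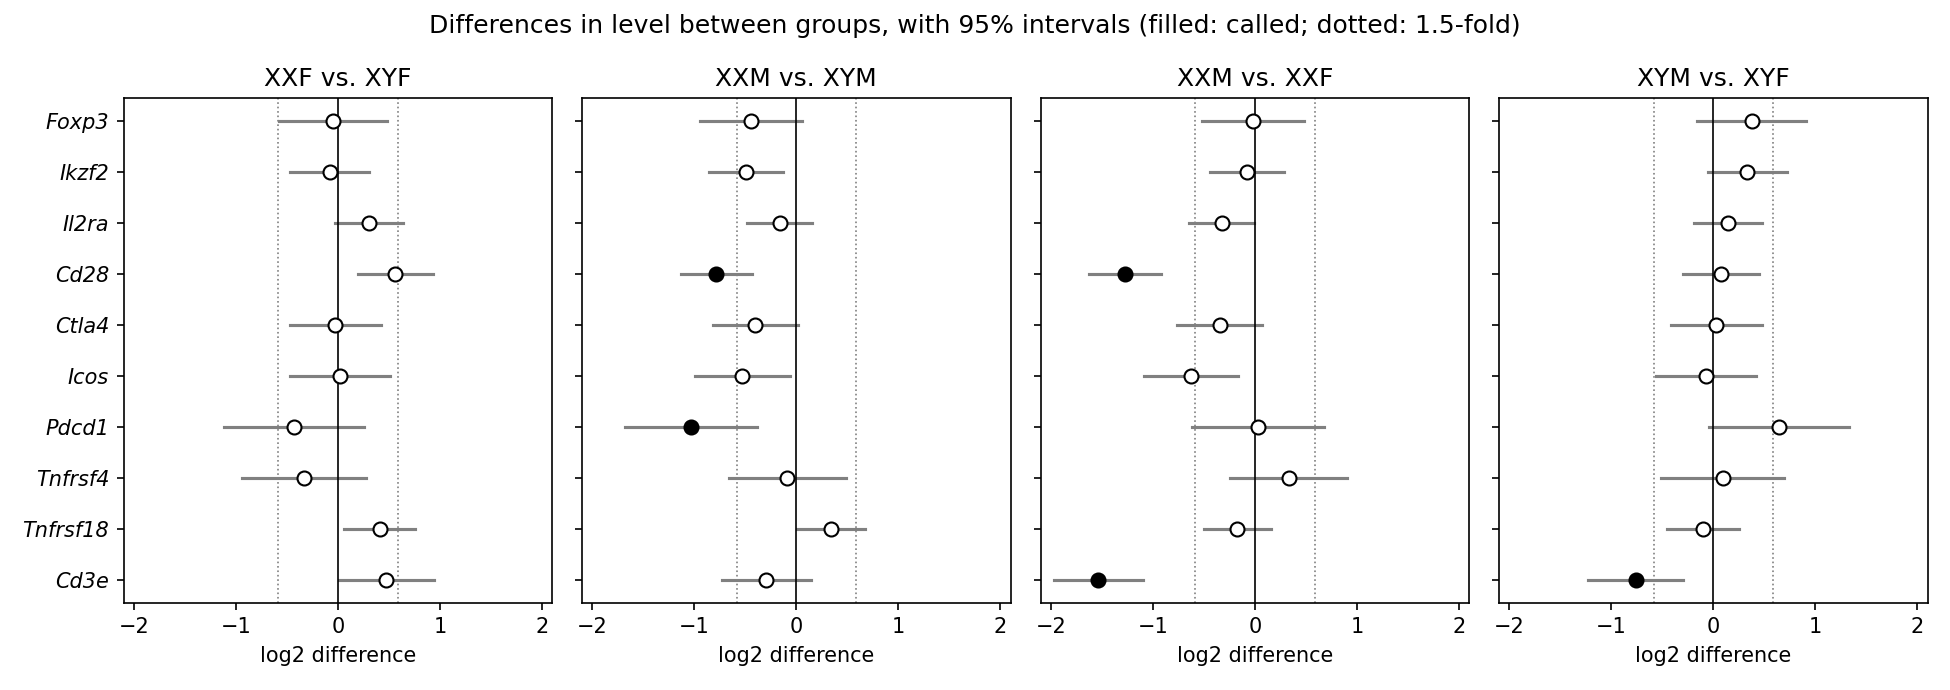
log2 differences of the 9 genes and Cd3e in 4 comparisons of groups, with 95% intervals. Filled points are called and dotted lines mark 1.5-fold: Cd28 and Pdcd1 in XXM vs. XYM, Cd28 and Cd3e in XXM vs. XXF, and Cd3e in XYM vs. XYF.

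Ctla4 (Entrez Gene 12477, chr1:60909025-60915832), the inhibitory receptor of the CD28 family, had group means between 7.30 (XXM) and 10.2 (XYM) and overlapped throughout. The highest level was in XYF F8 (15.3) and the lowest in XYM 9 (5.68). Its largest difference, XXM vs. XYM, was -0.40 ± 0.20 (limma adjusted p = 0.200), and it was called in no comparison.

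Icos (Entrez Gene 54167, chr1:60960773-61000322) encodes the inducible costimulator, which follicular helper cells need. Its mean RPKM was 13.5 in XXF, 13.4 in XYF, 8.50 in XXM and 13.2 in XYM mice, and 4 of 5 XXM mice lay below every XXF mouse. The difference XXM vs. XXF was -0.63 ± 0.22 and just missed the call (limma adjusted p = 0.110). It was called without XYF F9, XXM 5, XYM 15 or XYM 9 (-0.74 without XXM 5 and -0.63 without each other mouse). XXM vs. XYM gave -0.53 ± 0.22 (limma adjusted p = 0.142), and -0.77 with a call without XYM 9 (limma adjusted p = 0.0328). Without XYM 9 the difference of the XX vs. XY effects between females and males was 0.79, against 0.55 with it, and was called (limma adjusted p = 0.0625). Without XYF F9 and XYM 9 together it was 0.66 and was not called (limma adjusted p = 0.107).

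Pdcd1 (Entrez Gene 18566, chr1:94038305-94052553), whose promoter is shown above, had RPKM of 6.27, 11.1, 6.43, 3.99 and 5.58 in XXF mice, 8.10, 6.90, 14.2 and 7.78 in XYF mice, 4.92, 10.9, 8.98, 5.12 and 4.61 in XXM mice, and 12.2, 17.1, 24.5, 18.02 and 6.58 in XYM mice. The XYM mice were the highest, and 4 of them lay above every XXM and every XXF mouse. XYM 9 lay among the others. Pdcd1 fell in XXM vs. XYM mice by 1.04 ± 0.31 (SE, n = 5 and 5; limma adjusted p = 0.0840), a 2.05-fold difference. In females the difference had the same sign (-0.43 ± 0.33; limma adjusted p = 0.479), and a difference of the effects between the gonadal sexes was not called (0.61, with a 95% interval from -0.34 to 1.55; limma adjusted p = 0.429). Averaged over both, Pdcd1 was lower in XX than in XY mice by 0.73 ± 0.22 (SE, n = 10 and 9; limma adjusted p = 0.0811), a 1.66-fold difference. Of all genes 1.72% were called in that comparison, and of the 9 genes Pdcd1.

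Both calls of Pdcd1 lay near the threshold, and leaving out single mice moved the adjusted p across it more than the difference. XXM vs. XYM was not called without XXF F5, XXM 2, 5, 6 or 8, or XYM 12, 13 or 16, where the difference lay between -1.20 and -0.93 and the limma adjusted p between 0.102 and 0.209. XX vs. XY over both gonadal sexes was not called without XXF F3, F4 or F5, XYF F6, F8 or F9, XXM 2, 7 or 8, or XYM 13 or 16, with differences from -0.76 to -0.63 and limma adjusted p from 0.108 to 0.144. Leaving out XYF F9 and XYM 9 together enlarged both, to -1.29 (limma adjusted p = 0.0287) and -0.89 (limma adjusted p = 0.0406). Between XYM and XYF mice Pdcd1 differed by 0.64 ± 0.33 (limma adjusted p = 0.142). That was called without XYF F8 (0.85) and without XYM 9 (0.90).

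Tnfrsf4 (Entrez Gene 22163, chr4:156013595-156016613) encodes OX40, a costimulatory receptor of activated T cells. Its RPKM ranged from 6.52 (XXF F4) to 20.95 (XYM 15), and the groups overlapped. XYF F8 (18.6) stood apart from the other XYF mice (10.5 to 11.1). Its largest difference was 0.33 ± 0.27, XXM vs. XXF (limma adjusted p = 0.560), and it was called in no comparison of levels.

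Tnfrsf18 (Entrez Gene 21936, chr4:156026322-156028894) encodes GITR, a receptor abundant on regulatory T cells. Its RPKM was 31.9, 41.2, 36.6, 31.3 and 34.8 in XXF mice, 21.3, 36.4, 28.7 and 20.7 in XYF mice, 38.3, 34.3, 30.4, 29.1 and 24.4 in XXM mice, and 25.4, 22.9, 30.5, 25.6 and 18.4 in XYM mice. XX mice were the higher in both sexes, with overlap: 3 of 10 XX mice lay above every XY mouse, and 4 of 9 XY mice below every XX mouse. The difference over both gonadal sexes was 0.37 ± 0.11 (SE, n = 10 and 9). Its limma adjusted p was 0.0804, but its 1.30-fold size was below the threshold. Without XYF F9 and XYM 9 it was 0.27 (limma adjusted p = 0.255). Of the 9 B cell markers 7 also had a mean above 0 for XX vs. XY (median 0.41, 1 called). The part of B cells was not tested. Of the 9 genes only Tnfrsf18 and Il2ra (0.07 ± 0.11; limma adjusted p = 0.726) had a mean above 0 for XX vs. XY. Among all genes tested 7899 of 14186 did.

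Cd3e (Entrez Gene 12501, chr9:44998735-45009663), the reference, differed more between males and females than any of the 9. Its RPKM was 145, 192, 177, 135 and 182 in XXF mice, 131, 150, 132 and 74.5 in XYF mice, 54.0, 62.4, 73.7, 49.5 and 45.5 in XXM mice, and 70.4, 69.0, 86.3, 89.8 and 42.0 in XYM mice. Every XXM mouse lay below every XXF mouse, and XYF F9 was the single female within the range of the males. Cd3e fell in males vs. females by 1.15 ± 0.15 (SE, n = 10 and 9; limma adjusted p = 0.0000704), a 2.22-fold difference. It fell both in XXM vs. XXF (-1.53 ± 0.21; limma adjusted p = 0.000138) and in XYM vs. XYF mice (-0.76 ± 0.22; limma adjusted p = 0.0179). It was not called between XX and XY mice. The difference of its effects between the sexes (0.77 ± 0.30) was not called (limma adjusted p = 0.168). Without XYM 9 it was 0.95 and was called (limma adjusted p = 0.0546).

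The other T cell genes moved with Cd3e. Of the 16 T cell markers 14 fell in males, with a median difference of -1.20, and the exceptions were Cd4 (-0.54; limma adjusted p = 0.0142) and Cd2 (0.05; limma adjusted p = 0.805). Their summed RPKM was 1804, 2603, 2350, 1877 and 2277 in XXF mice, 1863, 2352, 1780 and 934 in XYF mice, 1015, 1073, 1035, 807 and 794 in XXM mice, and 1012, 913, 1294, 1123 and 627 in XYM mice. Cd2 was the most abundant of them in every group, and none was without reads. In these bulk samples fewer T cells and less RNA per T cell cannot be told apart. Of the 9 genes only Cd28 fell with these markers, and 4 of the 9 had a mean difference above 0 in males (Pdcd1, Tnfrsf4, Foxp3 and Ikzf2, from 0.13 to 0.34, none called). Markers of other cells moved as well. In males all 6 erythroid markers fell (median -1.62) and 4 of 6 proliferation markers fell (median -0.74), while 7 of 9 B cell markers (median 0.66) and 4 of 7 dendritic cell markers (median 0.64) rose. The part of these cell types in the results on the 9 genes was not tested.

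Relative to Cd3e, values are log2(RPKM + 0.1) minus that of Cd3e in the same mouse, tested for 14185 genes. All 9 genes lay above 0 in males vs. females, as did 13843 of all genes. Of the 9 genes 8 were called, all higher, against 89.5% of all genes called in either direction and 89.3% called higher. The median over the 9 genes was 1.05, against 1.18 over all genes (quartiles 0.93 and 1.398). Their rise against Cd3e is that of the genes in general and is no result about them. Cd28 differed from it with 0.52 ± 0.15, below 1.5-fold, and so stood nearer to Cd3e than most genes.

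Within that shift the percentages still show the levels. As a percentage of the Cd3e RPKM, Tnfrsf18 was 21.9, 21.5, 20.6, 23.3 and 19.2 in XXF mice, 16.3, 24.2, 21.7 and 27.7 in XYF mice, 71.1, 54.9, 41.3, 58.7 and 53.5 in XXM mice, and 36.1, 33.1, 35.3, 28.5 and 43.9 in XYM mice. All 10 males lay above all 9 females, and the XXM mice were the highest group. Ikzf2 was the other gene without overlap between males (7.33 to 12.9%) and females (3.13 to 6.997%). Such a separation was common, with the males above all females for 23.3% of all genes and for these 2 of the 9. Cd28 overlapped, from 9.09 to 14.3% in females and from 10.7 to 24.9% in males. Foxp3 made up 0.994 to 3.67% in females, and 3.08 to 7.15% in males.

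**Figure D4:**
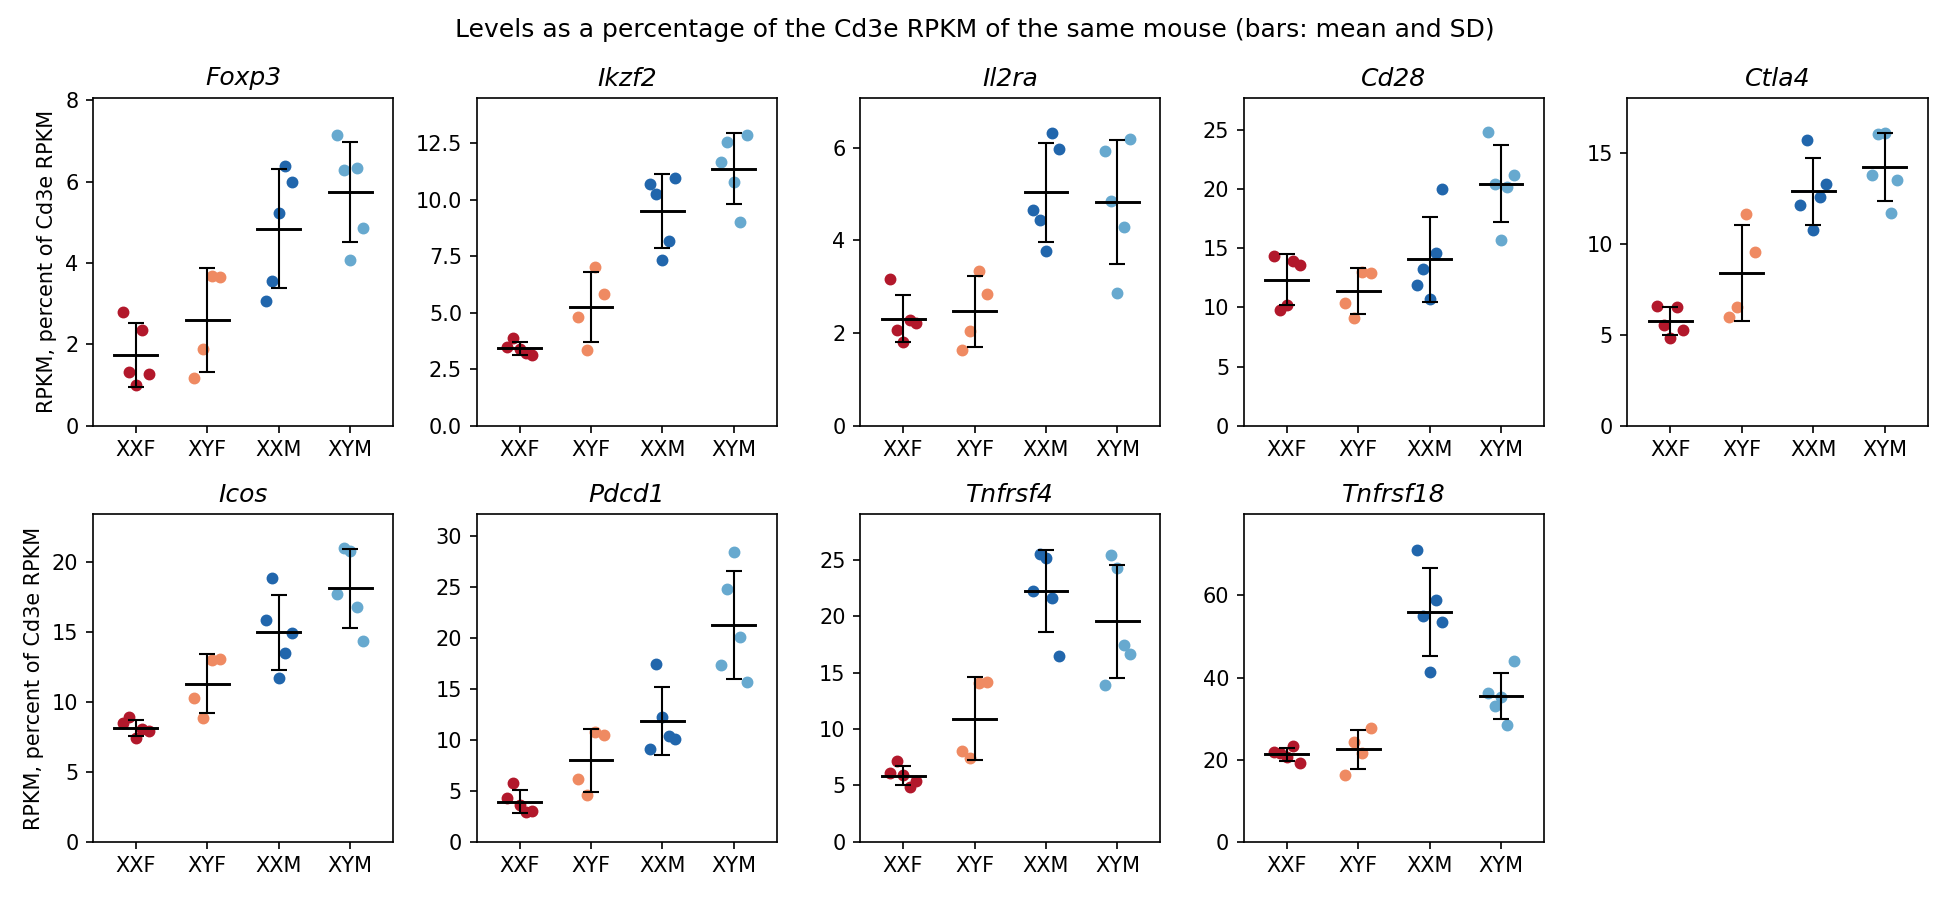
RPKM of the 9 genes as a percentage of the Cd3e RPKM of the same mouse, by group, with the mean and SD. For Tnfrsf18 the 5 XXM mice range from 41.3 to 71.1% and the 9 females from 16.3 to 27.7%.

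Between XXM and XYM mice, 2 of the 9 genes were called relative to Cd3e, in opposite directions, against 14.4% of all genes. Cd28 missed the call only by its size below 1.5-fold (-0.55 ± 0.20, SE, limma adjusted p = 0.0857), and was called without XXM 8. Tnfrsf18 was 1.57-fold higher in XXM mice (0.65 ± 0.18, SE, n = 5 and 5; limma adjusted p = 0.0409). Over all genes the median was 0.31 and the upper quartile 0.55, so that Tnfrsf18 lay somewhat above most genes. The call was lost without XXM 2 (0.56), XYM 12 (0.66) or XYM 16 (0.58), and with the mean of Cd3d, Cd3e and Cd3g as the reference (0.56; limma adjusted p = 0.158). With Cd4 as the reference Tnfrsf18 was higher by 1.07 (limma adjusted p = 0.00518) and Tnfrsf4 was called too (0.62; limma adjusted p = 0.0684). Against Cd4, however, 59.5% of all genes were called there, with a median of 0.72. Relative to Cd3e, Tnfrsf18 was higher by 0.73 without XYF F9 and XYM 9, and was called (limma adjusted p = 0.00205).

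Pdcd1 went the other way, and its percentages of Cd3e were 4.31, 5.78, 3.62, 2.96 and 3.07 in XXF mice, 6.17, 4.59, 10.8 and 10.4 in XYF mice, 9.11, 17.5, 12.2, 10.4 and 10.1 in XXM mice, and 17.3, 24.8, 28.4, 20.1 and 15.7 in XYM mice. XYM mice were the highest group, overlapping with XXM 5 alone. Relative to Cd3e Pdcd1 was 1.78-fold lower in XXM vs. XYM mice (-0.84 ± 0.27; limma adjusted p = 0.0579), below the lower quartile of all genes (0.04). The call was lost without XXM 2, 7 or 8 or XYM 12, 13, 15 or 16 (from -0.90 to -0.72; limma adjusted p from 0.110 to 0.168), and with the mean of Cd3d, Cd3e and Cd3g as the reference (-0.92; limma adjusted p = 0.134). Relative to Cd3e it was -0.93 without XYF F9 and XYM 9, and was called (limma adjusted p = 0.00827). With Cd4 as the reference the difference was -0.42 and was not called (limma adjusted p = 0.248). Over both gonadal sexes Pdcd1 was 1.87-fold lower in XX than in XY mice (-0.90 ± 0.19, SE, n = 10 and 9; limma adjusted p = 0.0197). It was the 1 called of the 9 genes, where 1.35% of all genes were called, and the call held without any single mouse and without XYF F9 and XYM 9 (-0.87). With Cd4 as the reference it was -0.69 and was not called (limma adjusted p = 0.194). Relative to Cd3e, 6 of 7 NK cell markers were called higher in XX mice (median 1.12). All 7 neutrophil markers lay below 0 there (median -1.26), with none called. The part of these cells was not tested.

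In females limma called none of the 9 genes relative to Cd3e between XXF and XYF mice, against 1.32% of all genes. An unadjusted limma p under 0.05 was found for 5 of the 9, against 3188 of 14185 genes. The largest differences were those of Pdcd1 (-0.97 ± 0.28; limma adjusted p = 0.123) and Tnfrsf4 (-0.84 ± 0.24; limma adjusted p = 0.118). The median over all genes was -0.41 there. Without XYF F7, 4 genes were called: Pdcd1 (-1.20), Tnfrsf4 (-1.003), Ikzf2 (-0.77) and Ctla4 (-0.61). Without that mouse 16.4% of all genes were called. Without XYM 9, Pdcd1 and Tnfrsf4 were called at their unchanged differences, with 15.1% of all genes.

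**Figure D5:**
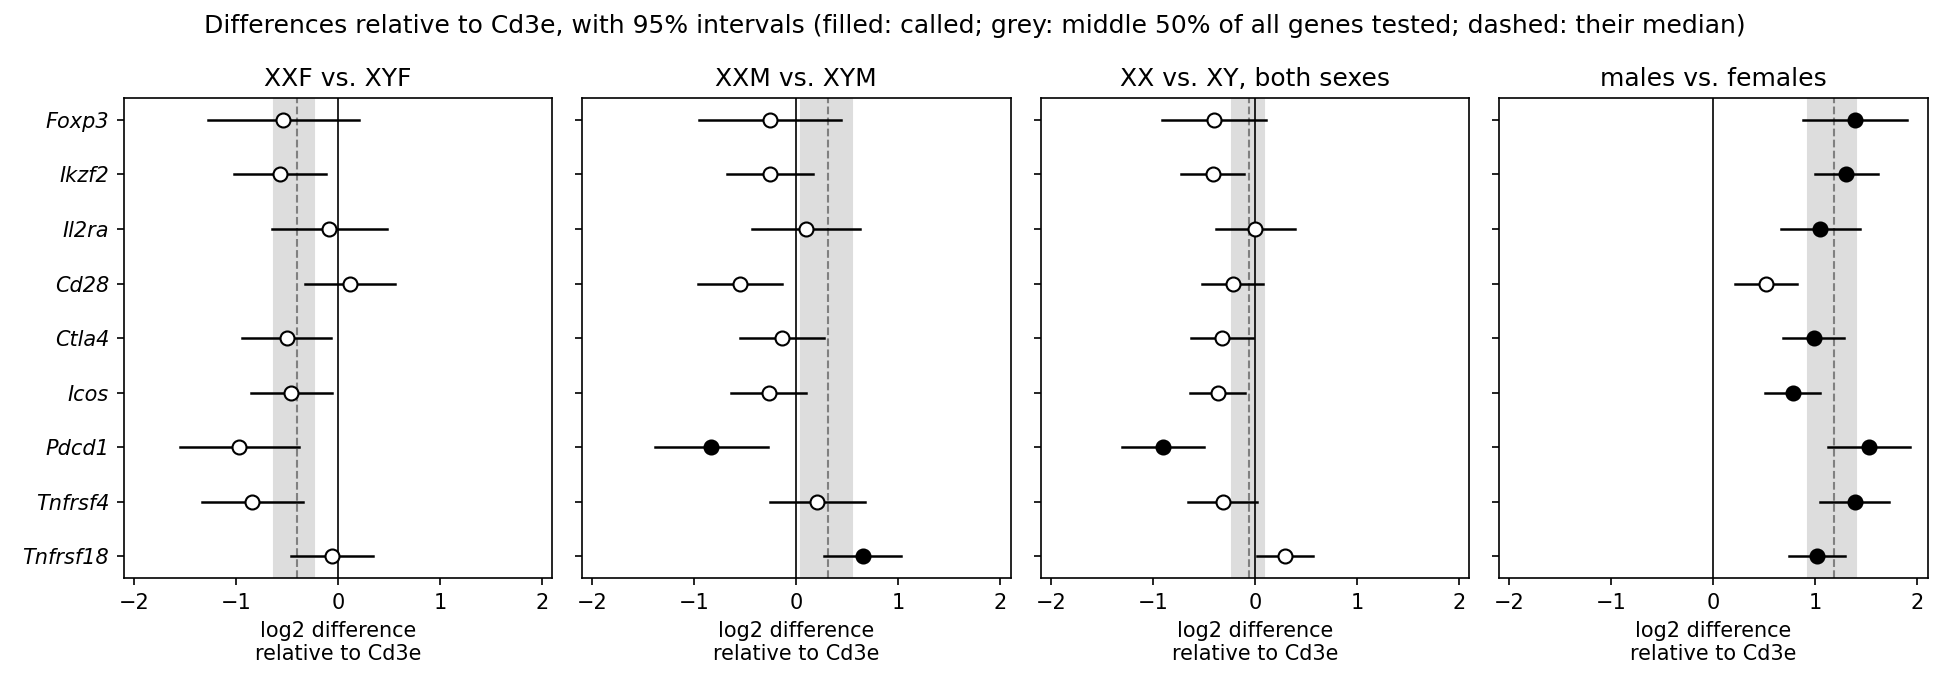
log2 differences relative to Cd3e with 95% intervals, with the middle 50% of all 14185 genes in grey. Most intervals overlap the grey band, and Pdcd1 lies to its left in the 2 middle panels (-0.84 and -0.90). Cd28 lies to its left in XXM vs. XYM (-0.55) and in males vs. females (0.52).

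Cd4, which marks helper and most regulatory T cells, followed another course than Cd3e. Its mean RPKM was 37.8 in XXF, 27.4 in XYF, 16.9 in XXM and 29.3 in XYM mice. It fell in XXM vs. XXF mice (-1.11; limma adjusted p = 0.00274) and was not called in XYM vs. XYF (0.04; limma adjusted p = 0.912), the order of the groups also seen for Cd28. As a percentage of Cd4, Cd28 had medians of 56.4 in XXF, 48.8 in XYF, 46.4 in XXM and 48.9 in XYM mice, and all 19 mice lay between 39.1 and 65.2. With Cd4 as the reference the difference of Cd28 was -0.14 in XXM vs. XYM (limma adjusted p = 0.442), 0.13 in XXF vs. XYF (limma adjusted p = 0.569) and -0.09 in males vs. females (limma adjusted p = 0.516). On this scale 4 of the 9 genes were called higher in males: Pdcd1 (0.92), Foxp3 (0.79), Tnfrsf4 (0.78) and Ikzf2 (0.70). Of all genes 48.8% were called there, with a median of 0.58, so that a rise against Cd4 is again shared with genes in general. Foxp3 made up 5.25 to 15.2% of Cd4 in females, and 12.02 to 21.1% in males. The part of Cd4+ cell numbers in the pattern of Cd28 was not tested.

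Of 24 other regulatory T cell genes tested, 3 fell in males and 1 rose, where 7.32% of all genes were called. Gpr83 (-0.69), Itgae (-0.87), which encodes the CD103 integrin chain, and Izumo1r (-0.76), the folate receptor 4 of regulatory and anergic T cells, fell, and Il12a, a subunit of interleukin 35, rose (0.74). The median over the list was 0.09. Summed T cell markers were also lower in males, with median RPKM of 1015 (XXM) and 1012 (XYM) against 2277 (XXF) and 1821 (XYF). Their part in these falls was not tested. In XXM vs. XYM mice Nt5e (CD73; -1.09) and Nrp1 (-0.61) were lower and Klrg1 (0.94) was higher, with 2.96% of all genes called. Over both gonadal sexes Il10 was lower in XX mice (-0.83) and Klrg1 higher (1.02), with 1.72% of all genes called. Klrg1 is also a marker of NK cells, and 6 of 7 NK cell markers were higher in XX mice over both gonadal sexes. Nrp1 was below 1.5-fold without 3 of the mice, down to -0.57 without XYM 13.

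Of the 10 ligand genes tested, Icosl, the ligand of ICOS, was higher in XYM vs. XYF mice (0.996) and in males overall (0.70). Cd274 (0.60) and Pdcd1lg2 (0.65), the ligands of PD-1, were also called in XYM vs. XYF mice. These were 3 of 10 ligands, where 15.8% of all genes were called. Markers of cells that carry such ligands were also higher there, 8 of 9 for B cells (median 0.83) and 4 of 7 for dendritic cells (median 0.70), and their part was not tested. Cd274 was not called without any of 5 mice (lowest 0.52, without XYM 16), and Pdcd1lg2 without 2 (lowest 0.56, without XYM 12). Among 15 other receptors of costimulation or coinhibition, 8 fell in XXM vs. XXF mice and none rose, with a median of -0.59. Of all genes 4.22% were called there, and 15 of the 16 T cell markers fell (median -1.42). The largest falls were those of Cd226 (-1.66), Cd40lg (-1.58), Cd96 (-1.57) and Cd27 (-1.32). Cd40lg, the CD40 ligand of helper T cells, shared with Cd28 a difference of its XX vs. XY effects between females and males (1.45; limma adjusted p = 0.0877). That call was lost without any of 14 mice (limma adjusted p up to 0.232 without XXF F5).

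Among 15 follicular helper genes none was called in XXF vs. XYF mice, where 1.38% of all genes were. In XXM vs. XYM mice, where 2.96% of all genes were called, 4 of the 15 were lower: Il21 (-1.01), Tox2 (-0.96), Tcf7 (-0.78) and P2rx7 (-0.59). Each of these 4 calls was lost without 6 or 7 single mice, XXM 2 among them. In the same comparison 3 of 16 T cell markers were called lower and 4 of 7 NK cell markers higher (median 0.91). Their part was not tested. In males vs. females, where 7.32% of all genes were called, Bcl6 (0.75), Cxcr5 (0.69) and Btla (0.66) rose, while Sh2d1a (-0.89) and Tcf7 (-1.27) fell. Most T cell markers fell in males too, as given above, and their part in the fall of Sh2d1a and Tcf7 was not tested. The 3 that rose are also expressed by B cells, whose markers rose (7 of 9, median 0.66), and the part of B cells in their rise was not tested. Btla was below 1.5-fold without XYF F9 (0.56). Of 10 interleukin 2 signalling genes only Il2rb was called, in XYM vs. XYF mice, where 15.8% of all genes were (0.69, but 0.58 and no call without XYF F6), and Il2 itself had a mean RPKM of 0.221 and was not tested. Among the 8 X-linked T cell genes, which include Foxp3, none was called for XX vs. XY over both gonadal sexes, where 1.72% of all genes were. Within the sexes Cd40lg was called in XXF vs. XYF (0.87) and Cxcr3 in XXM vs. XYM mice (-0.69), against 1.38% and 2.96% of all genes. Each of these calls was lost without several single mice, XXF F5 among them.

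Between mice of the same group Ctla4, Icos, Pdcd1, Tnfrsf4 and Ikzf2 varied together, and most pairs with Foxp3, Il2ra, Cd28 or Tnfrsf18 were looser. Correlations were taken over the 19 mice after centring each group on its mean, and the points share library and tissue. They were highest for Tnfrsf4 with Pdcd1 (r = 0.93, rho = 0.90, and 0.90 without the 2 farthest mice, XYM 9 and XYM 15) and for Ctla4 with Icos (r = 0.90, rho = 0.87, and 0.88 without XYM 9 and XYF F8). Ctla4 also varied with Pdcd1 (r = 0.86; rho = 0.79; 0.79 without XYM 9 and XYF F8) and with Tnfrsf4 (r = 0.83; rho = 0.86; 0.75 without the same mice). Icos with Pdcd1 (0.89; rho = 0.82; 0.82 without XYM 9 and XYM 15) and Ikzf2 with Icos (0.86; rho = 0.86; 0.87 without XYF F8 and XYM 9) were close behind. Foxp3 varied with Il2ra (0.73; rho = 0.71; 0.63 without XYM 9 and XYF F8) but little with Ikzf2 (r = 0.20; rho = -0.02; -0.31 without the same mice) or Tnfrsf18 (0.13; rho = 0.02; -0.13). Il2ra was loose with Tnfrsf4 (0.26; rho = 0.24; 0.077 without XYF F8 and XYF F9), and Cd28 with Tnfrsf18 (0.29; rho = 0.21; 0.087 without XYF F7 and XYM 9) and with Pdcd1 (0.43; rho = 0.27; 0.12 without XYM 9 and XYF F9). Cd28 varied with Cd4 (0.85; rho = 0.79; 0.77 without XYM 9 and XXF F3), and with Cd3e mainly through 2 mice (0.64; rho = 0.43; 0.20 without XYM 9 and XYF F9). Foxp3 varied with Cd4 (0.77; rho = 0.75; 0.68 without XYM 9 and XXF F3), and little with Cd3e (0.27; rho = 0.18; -0.02 without XYM 9 and XYF F9). Most others varied with Cd3e more closely, given here with r without XYM 9 and XYF F9 in brackets. These were Icos 0.84 (0.70), Tnfrsf4 0.73 (0.70), Tnfrsf18 0.73 (0.59), Ctla4 0.72 (0.48), Pdcd1 0.69 (0.63) and Ikzf2 0.68 (0.45). Il2ra was loose with Cd3e, at 0.35 (0.045).

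Some of the 9 genes are neighbours on their chromosome. Ctla4 lies 44940 bases from Icos and 135665 bases from Cd28 with no other coding gene between, and correlated at 0.90 with Icos and 0.63 with Cd28 (0.31 without XYM 9 and XYF F8). Tnfrsf4 and Tnfrsf18, 9708 bases apart, correlated at 0.59. Tnfrsf4 and Pdcd1, with the highest value of all, are on different chromosomes. Whether neighbours vary alike more than other pairs was not tested.

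The genes whose pattern within groups was most like that of Foxp3 were Cd22 (r = 0.96), Tlr1 (0.95), Arid3b (0.94), A530040E14Rik (0.94) and Trp53i11 (0.94). For Ctla4 they included Cd72 (0.96), Nt5e (0.94), Cxcr3 (0.92) and Tap1 (0.91), each over the 19 mice. Cd22 is a B cell gene, with RPKM from 57.5 to 293 against 1.54 to 5.69 for Foxp3. Nt5e, like Pdcd1, was also lower in XXM than in XYM mice.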

How the data were processed

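The authors sequenced spleen cell RNA of 19 mice, aligned it to mm10 with subread and counted genes with featureCounts. The deposited values are log2 of RPKM plus 1 and were tested as they stand. The paper and the sample records name different library kits (KAPA stranded, NEBNext Ultra). The members and lists were chosen with earlier results of these data known. Group means were compared by limma 3.58.1 (R 4.3.3) with trended empirical Bayes variances, and p was adjusted by Benjamini-Hochberg over all tested genes. Whole reads could be recovered from the values for 21317 genes, with deviations of at most 0.00123 reads, and served for limma-voom. No 2 mice of a group were duplicates (36 pairs, chi-square per gene 19.4 to 165). The genes named are the 9, Cd3e, genes of marker and pathway lists that were called or among the 3 most abundant, Il2, and genes among the 5 most like Foxp3 or Ctla4 by Pearson r of group-centred log2 values. Alternatives changed the pseudocount, filter, scaling, variance, weights, threshold, reference gene, or the mice and groups used. Scripts ran in Python 3.11.15 (pandas 2.3.3, numpy 2.4.6, matplotlib 3.10.9, scipy 1.17.1). No batch was given. Groups follow one another in the running numbers, and XXM titles differ from all others by an added tag after the library number. A batch effect therefore cannot be told apart from the group in any comparison of groups.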

Additional observations from a re-analysis of the deposited data

Results flagged for a closer look

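By chance about 1 group in 20 would hold a mouse far from the rest by the rule used, which compares the gap to the nearest mouse with the whole range of the group, and 5 of 124 groups of values looked at did so. In XYM mice, Ikzf2 was at 2.68 on the log2(RPKM + 1) scale in XYM 9, below the other mice (3.18 to 3.37). In XYF mice, Tnfrsf4 was at 4.29 in XYF F8, above the other mice (3.53 to 3.601). XYM 9 also stood apart from the XYM mice in the summed RPKM of macrophage and monocyte markers (3442, others 747 to 1207), neutrophil markers (58534, others 3208 to 9416) and proliferation markers (281, others 56.5 to 108). The part of these cells in the low Ikzf2 of this mouse was not tested.

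The XX vs. XY effect was called as different between females and males for 12 of all genes (0.0846%), and for 2 of the genes listed here, Cd28 (1.35) and Cd40lg (1.45). In females only that of Cd40lg was called (0.87, against 0.56 for Cd28), and in males only that of Cd28 (-0.79, against -0.58 for Cd40lg). The call of the difference was lost without any of 11 mice for Cd28, and with no filter, and without any of 14 mice for Cd40lg.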

How the results depend on the processing

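Each of 106 log2 differences of the 9 genes and Cd3e was taken again in up to 32 settings, giving 3182 values. Of these 3012 kept the sign and the call, 62 lost a call, 38 gained a call and 70 had the other sign. No called difference was among those that changed sign. Their causes were not tested. No paired analysis was possible because the groups share no replicate numbers.

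The number of the 9 genes called moved as follows. In XXM vs. XYM it was 2, and 1 with no filter, with the compared groups alone or at an adjusted p under 0.05, 4 with array weights (7.24% of all genes), and 5 without XYF F9 and XYM 9 (6.23% of all genes), against 2.96% of all genes for the 2. Leaving out each mouse gave 0 (without XXM 2 or XYM 12, with 0.360% and 0.566% of all genes) to 5 (without XYM 9, with 5.50%). For XX vs. XY over both gonadal sexes it was 1 (1.72% of all genes), and 0 with no filter or at an adjusted p under 0.05. It was 2 without the fold threshold, and 0 to 1 leaving out each mouse. In XXM vs. XXF it was 1 (4.22% of all genes). It was 2 with median ratio rescaling, the compared groups alone, array weights, or without XYF F9 and XYM 9. Leaving out each mouse gave 1 to 2. In XYM vs. XYF it was 0 (15.8% of all genes), and 1 without XYF F9 and XYM 9, and 0 to 1 leaving out each mouse. In XXF vs. XYF it was 0 (1.38% of all genes), and 0 to 1 leaving out each mouse (1 without XYF F8). For males vs. females it was 1 (7.32% of all genes), and 0 to 1 leaving out each mouse. For the difference of the XX vs. XY effects between the sexes it was 1 (0.0846% of all genes). It was 0 with no filter or at an adjusted p under 0.05, and 0 to 2 leaving out each mouse. The number called over all genes moved with these settings as well, as listed further below.

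Relative to Cd3e, the number called in XXM vs. XYM was 2, and 0 with the mean of Cd3d, Cd3e and Cd3g as the reference, 1 at an adjusted p under 0.05, 3 without the fold threshold, and 0 to 2 leaving out each mouse. For XX vs. XY it was 1 (against 1.35% of all genes), and 0 with Cd4 as the reference (against 1.68% of all genes). For males vs. females it was 8 (against 89.5% of all genes), and 4 with Cd4 as the reference (against 48.8% of all genes). It was 9 with the mean of Cd3d, Cd3e and Cd3g as the reference (against 92.9% of all genes), and 9 without the fold threshold. In XXF vs. XYF it was 0 (against 1.32% of all genes), and 0 to 4 leaving out each mouse (4 without XYF F7).

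Over all genes, leaving out each mouse gave 57 to 850 called genes in XXF vs. XYF, 51 to 1212 in XXM vs. XYM, 148 to 518 for XX vs. XY, 1396 to 2956 in XYM vs. XYF, and 0 to 1693 for the difference of effects between the sexes. The other settings gave 88 to 345, 85 to 1115, 164 to 983, 1903 to 5661 and 0 to 1911 in the same order. They gave 496 to 1348 in XXM vs. XXF and 957 to 5468 for males vs. females. Relative to Cd3e, leaving out each mouse gave 48 to 2319 in XXF vs. XYF and 199 to 5072 in XXM vs. XYM, and the other settings 63 to 210 and 539 to 8439.

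Changes of sign were confined to differences that were not called. Icos in XXF vs. XYF was -0.048 with median ratio rescaling, -0.023 with quantile normalization, -0.090 with array weights and -0.11 without XYF F9 and XYM 9. Ctla4 in XYM vs. XYF was -0.020, -0.026 and -0.022 with the first 3 of these. Foxp3 in XXM vs. XXF was 0.051 with quantile normalization and 0.075 with array weights. Il2ra for XX vs. XY was -0.014 with array weights and -0.0099 without XYF F9 and XYM 9. Without these 2 mice Cd3e for XX vs. XY was -0.11 and Icos in XYM vs. XYF was 0.030.

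Relative to Cd3e, Il2ra for XX vs. XY was -0.0088 with a pseudocount of 0.5, -0.021 with a pseudocount of 1 and -0.023 with the mean of Cd3d, Cd3e and Cd3g as the reference. With Cd4 as the reference, XXM vs. XYM gave 0.28 for Ctla4, 0.16 for Foxp3, 0.16 for Ikzf2 and 0.14 for Icos, and males vs. females gave -0.087 for Cd28. Without XYF F9 and XYM 9, XXF vs. XYF gave 0.0083 for Il2ra and 0.054 for Tnfrsf18.

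Leaving out each mouse moved the following across 0, from the lowest to the highest value. In XXF vs. XYF these were Ctla4 (-0.15 to 0.18), Foxp3 (-0.25 to 0.15), Icos (-0.11 to 0.14) and Ikzf2 (-0.21 to 0.10). In XYM vs. XYF they were Cd28 (-0.065 to 0.23), Ctla4 (-0.099 to 0.24), Icos (-0.21 to 0.16), Tnfrsf18 (-0.21 to 0.056) and Tnfrsf4 (-0.065 to 0.30). In XXM vs. XXF they were Foxp3 (-0.12 to 0.10), Ikzf2 (-0.16 to 0.0093) and Pdcd1 (-0.13 to 0.21). Others were Tnfrsf4 in XXM vs. XYM (-0.30 to 0.073), Cd3e for XX vs. XY (-0.019 to 0.15), and Tnfrsf18 for the difference of effects between the sexes (-0.035 to 0.23). Relative to Cd3e they were Il2ra for XX vs. XY (-0.083 to 0.082), in XXF vs. XYF (-0.26 to 0.073) and in XXM vs. XYM (-0.080 to 0.20), and Tnfrsf18 in XXF vs. XYF (-0.20 to 0.054).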
